A study of Mus musculus with 9 samples.

Results

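Angpt1, Tek, Robo4, Procr, Esam, Fgd5, Trpc6 and Pdzk1ip1 are 8 genes by which haematopoietic stem cells are recognised or through which they receive signals from the bone marrow niche. They were taken by symbol from the deposited table, and all 8 were found among its 14940 symbols and were among the 12892 genes that passed the filter on low values. RNA came from LSK cells, which are sorted as negative for lineage markers and positive for Sca-1 and cKit and which mix stem cells with multipotent progenitors. The 9 libraries came from 9 C57BL/6 mice with no transgene or deletion named. In the first group, 3 mice were immunized for experimental autoimmune encephalomyelitis (EAE) with complete Freund's adjuvant and a myelin oligodendrocyte glycoprotein peptide, and received SR59230A, an antagonist of the β3-adrenergic receptor, over 3 days. The second group held 3 immunized mice at day 3 without the antagonist, and the third held 3 naive mice. The labels give neither age nor sex, no group had adjuvant alone, and no vehicle is named for the immunized mice without SR59230A, so adjuvant and peptide, and the antagonist and its administration, cannot be told apart.

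The deposited whole numbers are values adjusted by the authors and not read counts, so depth and counting error are unknown. They summed to between 8641735 and 10387955 per library. Within groups the values cannot vary in 2 directions, so SDs, SEs and p-values may understate the spread between mice. All values below are the deposited values after scaling between libraries. They are not comparable between genes, since the effect of transcript length on them is unknown. The genes of the sort were present in all libraries: Ly6a, which encodes Sca-1, stood between 1412 and 2539, and Kit between 4846 and 7236. Kit fell in EAE against naive mice by 0.43 ± 0.09 on the log2 scale (SE), while Ly6a rose by 0.46 ± 0.12, a call lost without scaling (limma-trend adjusted p = 0.0758) and without naive replicate 1 (0.0618). Whether a shift in the gate took part in the results was not tested.

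As background, angiopoietin-1, the product of Angpt1, is a secreted ligand of the receptor tyrosine kinase Tie2, which Tek encodes, and this pair is known for its association with stem-cell quiescence and adhesion in the bone marrow. Robo4 is a roundabout-family receptor linked to the lodging of stem cells in their niche, Procr encodes the endothelial protein C receptor, and Esam encodes an immunoglobulin-family adhesion molecule. Fgd5 is an exchange factor for the small GTPase Cdc42, Trpc6 a cation channel opened by diacylglycerol, and Pdzk1ip1 a small membrane protein that binds PDZ-domain scaffolds. Reporters or antibodies for Procr, Esam, Fgd5 and Pdzk1ip1 are used to mark stem cells in the mouse, and several of the 8 genes are also active in blood vessel endothelium.

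RefSeq promoter windows (GRCm38.p6), each from 250 bases before to 50 bases after the transcription start, were found for 6 of the 8 genes, namely Tek, Robo4, Procr, Fgd5, Trpc6 and Pdzk1ip1. No source used here names the build behind the deposited values, so these windows serve only to show the sequence. The 3 below are shown because they set the promoters of Robo4 and Fgd5, genes that were lower after immunization, beside that of Tek, the receptor gene that did not pass the test. They lie on the plus strand at chr9:37401722-37402021 (Robo4), chr6:91978715-91979014 (Fgd5) and chr4:94739039-94739338 (Tek). Capitals mark matches on either strand to any of 5 motifs. The letters searched were AGGAAG for the core of ETS factor sites and AGATAA for sites of GATA factors. They were CATCTG for an E-box, TGTGGT for sites of RUNX factors and GGGCGG for a GC box. None of these motifs overlapped another in the printed windows.
Robo4: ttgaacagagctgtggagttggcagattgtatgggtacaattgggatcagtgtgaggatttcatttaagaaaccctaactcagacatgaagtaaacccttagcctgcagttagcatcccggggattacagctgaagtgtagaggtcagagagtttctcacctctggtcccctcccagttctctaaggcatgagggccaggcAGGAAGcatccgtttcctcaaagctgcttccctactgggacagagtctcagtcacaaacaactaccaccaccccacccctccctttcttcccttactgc
Fgd5: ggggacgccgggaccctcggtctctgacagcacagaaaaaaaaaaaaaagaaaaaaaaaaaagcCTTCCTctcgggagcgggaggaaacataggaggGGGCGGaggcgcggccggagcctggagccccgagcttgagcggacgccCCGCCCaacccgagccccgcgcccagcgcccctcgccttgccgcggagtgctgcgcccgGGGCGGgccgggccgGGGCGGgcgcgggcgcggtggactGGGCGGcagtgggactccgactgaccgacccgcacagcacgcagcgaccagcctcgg
Tek: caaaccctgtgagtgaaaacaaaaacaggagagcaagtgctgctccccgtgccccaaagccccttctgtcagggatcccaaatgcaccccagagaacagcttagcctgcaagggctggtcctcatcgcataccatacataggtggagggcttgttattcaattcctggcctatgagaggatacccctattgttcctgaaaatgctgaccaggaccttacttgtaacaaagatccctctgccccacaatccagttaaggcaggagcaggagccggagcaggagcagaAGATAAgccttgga

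The Robo4 window held 1 match to the ETS core, and the Fgd5 window held 1 to the ETS core and 5 to the GC box. The Tek window held 1 GATA match, downstream of the start. Of the other windows, that of Pdzk1ip1 held 1 E-box match and those of Procr and Trpc6 held none of the motifs. Among all 32851 windows of this length, 35.4% had an ETS core match, 35.7% a GC box, 17.2% an E-box, 16.8% a RUNX match and 11.2% a GATA match. With 2 of 6 genes holding an ETS core and 1 of 6 each a GC box, an E-box and a GATA match, these matches describe the letters only.

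In EAE against naive mice, 6 of the 8 genes were lower and none was higher, by limma-trend over all 12892 genes with Benjamini-Hochberg adjusted p under 0.05. Angpt1, Trpc6 and Robo4 were at 36.6%, 43.1% and 48.0% of their naive means, Pdzk1ip1, Fgd5 and Procr at 63.3%, 64.4% and 72.4%. Tek and Esam did not pass, at 88.2% and 106% of their naive means. Over all tested genes, 5.14% were lower, 9.24% higher and 14.4% changed in either direction by the same rule. The 6 genes also lay without overlap below the naive mice, as 18.4% of all genes did, and had an unadjusted p under 0.05, as 29% did. The median log2 fold change of the 8 genes was -0.66, beside -0.0018 over all genes tested. In bulk samples, fewer stem cells among LSK cells and less RNA of these genes per cell cannot be told apart. With the summed level of chemosensory receptor genes as a further term, a level that did not overlap between EAE and naive mice, 1 of the 8 genes (Angpt1) passed. Over all genes 113 passed in that fit, 36 of them lower, against 1854 without the term. Where calls are said below to be lost, that term is left aside unless named.

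**Figure D1:**
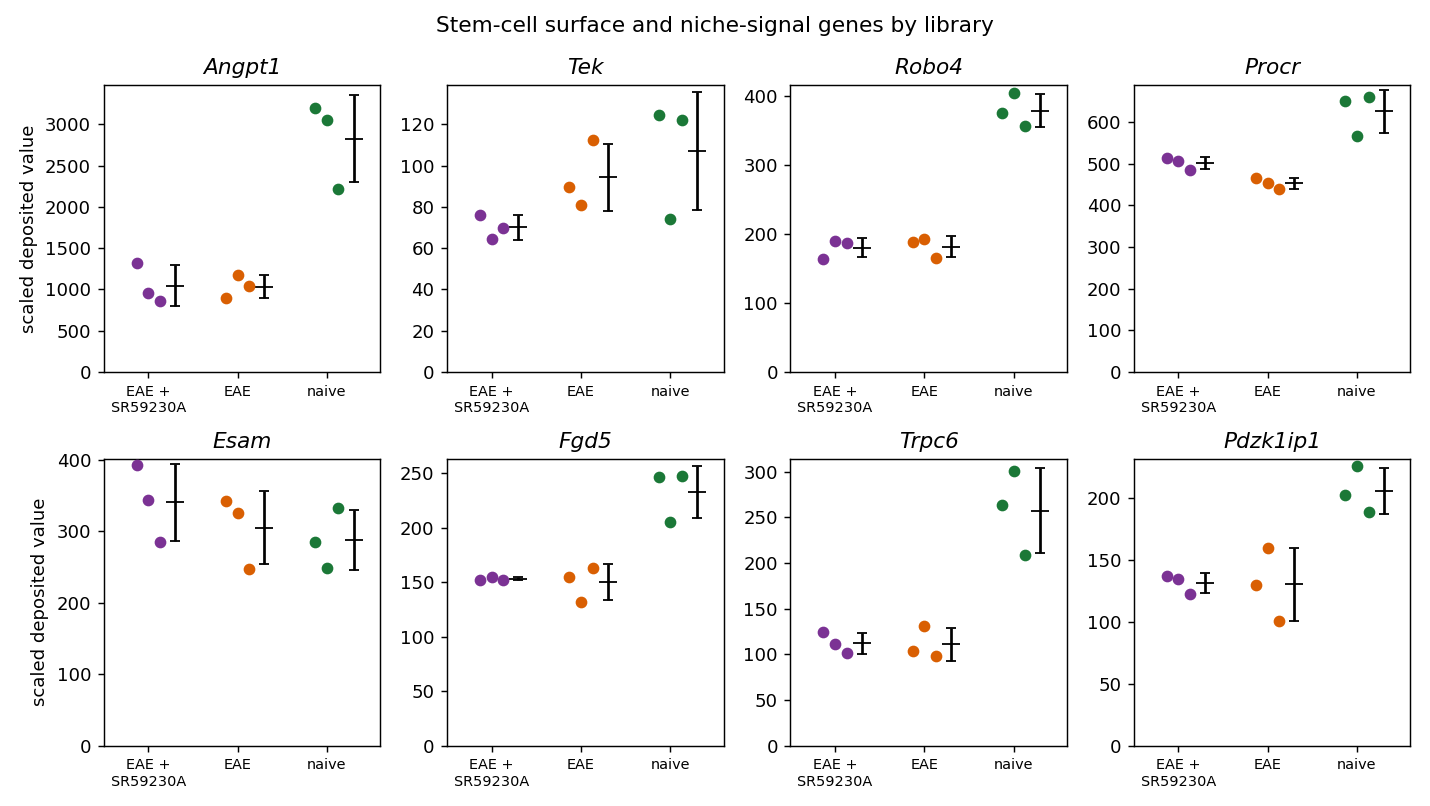
Scaled deposited values (y axes, from 0, a different scale in each panel) of the 8 genes in LSK cells of SR59230A-treated EAE, EAE and naive mice. Coloured points are libraries, 3 per group, and the black bar and whiskers are mean and SD. For Angpt1, Robo4, Procr, Fgd5, Trpc6 and Pdzk1ip1 all 6 libraries of immunized mice lie below all 3 naive libraries, whereas Tek and Esam overlap.

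Angpt1, the ligand gene, had values of 1325, 953 and 863 in SR59230A-treated EAE mice, 895, 1170 and 1039 in EAE mice and 3192, 3058 and 2222 in naive mice. The highest value of any immunized mouse was thus well below the lowest naive one, and the EAE and treated libraries were interleaved. In EAE against naive mice the log2 fold change was -1.45 ± 0.18 (SE, limma-trend adjusted p = 0.000465), which put Angpt1 at percentile 0.97 of all log2 fold changes, counted from the most negative. This call held under all 18 alternative settings, with log2 fold changes from -2.19 to -1.34.

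Tek, which encodes the Tie2 receptor of that ligand, had values of 76.3, 64.2 and 70.0 in treated EAE mice, 89.4, 80.8 and 113 in EAE mice and 125, 73.9 and 122 in naive mice. Naive replicate 2 stood among the immunized mice, so the EAE and naive groups overlapped. The log2 fold change in EAE against naive mice was -0.16, with a 95% interval from -0.68 to 0.37 (limma-trend adjusted p = 0.703), an interval that excludes a fall as large as that of Angpt1. The ratio of Angpt1 to Tek within a library, which does not depend on scaling, was 17.4, 14.8 and 12.3 in treated EAE mice, 10.01, 14.5 and 9.23 in EAE mice and 25.6, 41.4 and 18.2 in naive mice. The ratio was therefore lower in each of the 6 immunized mice than in any naive mouse, although the naive values spread widely. How often ratios of other gene pairs separate these groups was not counted.

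Of 18 tested genes of Tie2 and angiopoietin signalling beyond this pair, 4 fell and 3 rose in EAE against naive mice, and their median was 0.11 on the log2 scale. For this list and those below, 5.14% of all tested genes fell and 9.24% rose in this comparison. Tie1, the orphan sister receptor of Tie2, fell by 0.72 ± 0.15 on the log2 scale, at 299.5 ± 7.57 in EAE mice and 492 ± 33.8 in naive mice (SD, n = 3 each). Dok2, a docking protein that binds the activated Tie2 receptor, fell by 0.83 ± 0.11. The phosphoinositide 3-kinase subunit gene Pik3cb rose by 0.70 ± 0.14. The list therefore held genes moving both ways, with Tie1 and Dok2 lower while Tek did not pass.

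Robo4, the guidance receptor gene, had values of 164, 190 and 187 in treated EAE mice, 188, 192 and 165 in EAE mice and 375, 404 and 357 in naive mice. The naive mice stood apart by a wide gap, and the spread within each group was small. The log2 fold change in EAE against naive mice was -1.06 ± 0.13 (limma-trend adjusted p = 0.000465), at percentile 2.85 of all genes. Under the 18 alternatives it lay between -1.14 and -0.92, and the call ended with the chemosensory term alone (adjusted p = 0.210).

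Robo3, a divergent member of the same receptor family, went the other way. It had values of 62.0, 61.1 and 75.5 in treated EAE mice, 55.1, 90.0 and 74.0 in EAE mice and 19.3, 29.4 and 16.9 in naive mice. It rose in EAE against naive mice by 1.72 ± 0.28 on the log2 scale (limma-trend adjusted p = 0.00283), also without scaling and with upper-quartile scaling. In all, 2 of 16 tested genes of Slit and Robo signalling rose and 1 fell. Sdc1, which encodes the proteoglycan syndecan-1, fell by 0.90 ± 0.15. Gpc1, which encodes the proteoglycan glypican-1 that binds Slit proteins, rose by 0.86 ± 0.25, a call that ended without EAE replicate 2 or any 1 of the naive replicates (adjusted p from 0.0557 to 0.0845) and with upper-quartile scaling (0.0572).

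In GENCODE M21, Robo4 and Esam lie close together on mouse chromosome 9, with Robo3 and Msantd2 as the protein-coding genes between them. These neighbours were looked at after their values were seen. Msantd2 had values of 28.0, 31.7 and 35.4 in EAE mice and 23.3, 39.8 and 19.7 in naive mice, which overlapped. From Robo4 onwards along the chromosome, the log2 differences between EAE and naive mice were -1.06 for Robo4, 1.72 for Robo3, 0.25 for Msantd2 and 0.08 for Esam. Robo4 thus fell and the adjacent Robo3 rose, while Msantd2 and Esam did not pass. Of the tested genes on either side of this stretch, Ccdc15 and Vsig2 did not pass and Nrgn fell by 0.73 ± 0.12.

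Procr, which encodes the protein C receptor, had values of 513, 506 and 485 in treated EAE mice, 466, 454 and 440 in EAE mice and 652, 567 and 659 in naive mice. The 3 groups did not overlap, with the treated mice between the EAE and the naive mice. In EAE against naive mice the log2 fold change was -0.46 ± 0.10 (limma-trend adjusted p = 0.0121), and it lay between -0.54 and -0.32 under the 18 alternatives. The call was lost with the chemosensory term (adjusted p = 0.576).

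Of 10 tested genes of the protein C and thrombin receptor pathway, 1 rose and none fell in EAE against naive mice (limma-trend). The gene that rose was Adam17, which encodes a protease that sheds surface receptors, by 0.57 ± 0.12 on the log2 scale. For the thrombin receptor gene F2r, through which protein C receptor signals are relayed, the log2 fold change was -0.09 ± 0.13, and for the thrombomodulin gene Thbd it was 0.06 ± 0.16. F2r and Thbd are named as the partners of Procr, after their values were seen.

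Esam, the adhesion molecule gene, had values of 393, 344 and 285 in treated EAE mice, 343, 325 and 247 in EAE mice and 285, 248 and 332 in naive mice. All 3 groups overlapped. The log2 fold change in EAE against naive mice was 0.08, with a 95% interval from -0.30 to 0.46 (limma-trend adjusted p = 0.806), and its sign changed without EAE replicate 1 or naive replicate 2 (-0.017 and -0.023). The ratio of Robo4 to Esam within a library was 0.417, 0.550 and 0.654 in treated EAE mice, 0.547, 0.591 and 0.667 in EAE mice and 1.32, 1.63 and 1.07 in naive mice. Whatever the scaling, this ratio did not overlap between immunized and naive mice. Since Esam did not pass, it restates the fall of Robo4 without the scaling, and ratios of other gene pairs were not counted. The ratio of Procr to Esam was likewise lower in immunized mice, at 1.31 to 1.70 in treated EAE mice, 1.36 to 1.78 in EAE mice and 1.98 to 2.29 in naive mice.

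Of 10 tested genes of junction adhesion molecules and their scaffolds, 2 fell and none rose in EAE against naive mice. F11r, which encodes JAM-A, a relative of the Esam product, fell by 0.58 ± 0.13 on the log2 scale (limma-trend adjusted p = 0.0137). The VE-cadherin gene Cdh5, a marker of endothelium, had low means of 7.44 in EAE mice and 59.2 in naive mice, with a log2 fold change of -2.89 ± 0.80. Its EAE mean lay below the filter value of 10 and all 3 naive values lay above it. The naive mice alone were thus enough for Cdh5 to be tested, which favours a fall. Its call was lost without EAE replicate 2 or 3 or naive replicate 1 or 3 (adjusted p from 0.0610 to 0.0927 in these fits).

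Fgd5, the Cdc42 exchange factor gene, had values of 153, 155 and 152 in treated EAE mice, 155, 132 and 164 in EAE mice and 246, 206 and 248 in naive mice. The immunized mice were all below the naive mice. In EAE against naive mice the log2 fold change was -0.63 ± 0.15 (limma-trend adjusted p = 0.0156), between -0.72 and -0.55 under the 18 alternatives, and the call ended with the chemosensory term (adjusted p = 0.503). GENCODE M21 places an antisense gene across Fgd5, and genes on the opposite strand across Angpt1 and Trpc6. It also places another annotated gene across Fgd5 on the same strand, where counting by strand would not separate the reads. No source used here says whether the counting used strand, so reads of these pairs cannot be told apart.

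Among 20 tested genes of the Fgd family and of Cdc42 regulation, 1 rose and 1 fell in EAE against naive mice. Dock9, which encodes another Cdc42 exchange factor, rose by 1.12 ± 0.12 on the log2 scale, and Itsn1, which encodes the exchange factor intersectin, fell by 1.06 ± 0.11 (limma-trend adjusted p = 0.000242 and 0.000194). Under no scaling and upper-quartile scaling both kept their direction and passed. The other tested Fgd genes, Fgd1, Fgd2, Fgd3, Fgd4 and Fgd6, did not pass in this comparison. Dock9 and Itsn1, exchange factor genes for the same GTPase, thus moved in opposite directions. The other 18 of the 20 genes did not pass, and 14.4% of all genes passed in either direction.

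Trpc6, the channel gene, had values of 124, 111 and 101 in treated EAE mice, 104, 131 and 98.0 in EAE mice and 263.6, 300.4 and 208.5 in naive mice. The groups of immunized mice lay on top of each other and well below the naive mice. The log2 fold change in EAE against naive mice was -1.21 ± 0.19 (limma-trend adjusted p = 0.00179), at percentile 1.83 of all genes, and between -1.63 and -1.08 under the 18 alternatives. It did not pass with the chemosensory term (adjusted p = 0.122).

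Of 12 tested genes of Trpc channels and calcium entry, 1 rose and 1 fell in EAE against naive mice, beside 14.4% of all genes passing in either direction. No other Trpc channel gene was among those tested. Itpr1, which encodes a calcium release channel gated by inositol trisphosphate, rose by 0.49 ± 0.09 on the log2 scale (limma-trend adjusted p = 0.00594). Plcg1, which encodes a phospholipase that makes inositol trisphosphate and diacylglycerol, fell by 0.43 ± 0.10 (adjusted p = 0.0133).

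Pdzk1ip1, the small membrane protein gene, had values of 137, 135 and 122 in treated EAE mice, 130, 160 and 101 in EAE mice and 203, 226 and 189 in naive mice. The EAE mice differed among themselves more than the treated mice did, and all immunized mice were below the naive ones. In EAE against naive mice the log2 fold change was -0.68 ± 0.18 (limma-trend adjusted p = 0.0294), the weakest of the 6 calls. It was lost without scaling (adjusted p = 0.0540), without naive replicate 1 (0.0565) or 2 (0.0556) and with the chemosensory term (0.503), and its adjusted p ranged from 0.00843 to 0.503 over the alternatives.

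Of 16 tested genes of Pdzk1 partners and of TGF-beta signalling, 4 fell and 1 rose in EAE against naive mice, and their median was -0.21 on the log2 scale. The PDZ scaffold genes Slc9a3r2 and Slc9a3r1 fell by 1.12 ± 0.29 and 0.51 ± 0.11 on the log2 scale, and Smad3, a signal transducer of TGF-beta receptors, fell by 0.60 ± 0.14. Tgfb1, the ligand gene, rose by 0.42 ± 0.10. These 4 passed limma-trend with adjusted p between 0.0101 and 0.0236.

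**Figure D2:**
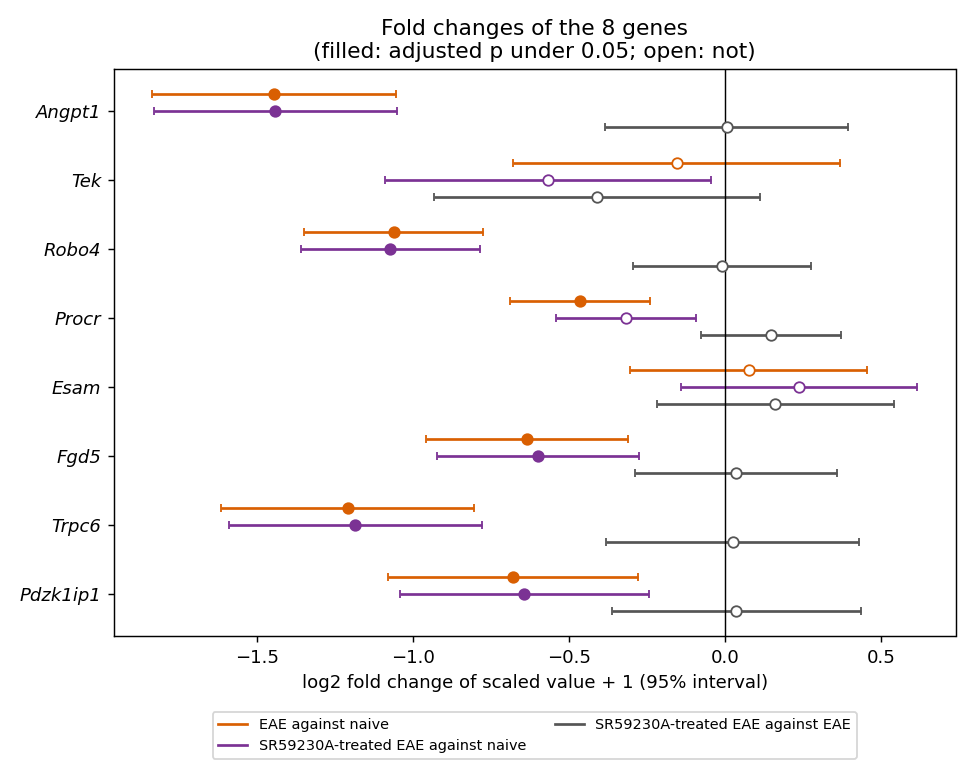
Log2 fold change (x axis, on the scale of scaled value + 1) of each of the 8 genes (rows) in 3 comparisons, with 95% intervals not adjusted for the number of genes. Filled points passed at adjusted p under 0.05 and open points did not. EAE and treated EAE mice against naive mice run close together from Angpt1 (-1.45 and -1.44) to Esam (0.08 and 0.24), with Tek the furthest apart (-0.16 and -0.57). All 8 intervals for treated against untreated EAE mice cross 0.

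The next comparison asks what SR59230A changed in immunized mice. None of the 8 genes passed by limma-trend, 0 of them had an unadjusted p under 0.05, and over all genes 0.00776% passed (1 gene, higher) and 3.86% had an unadjusted p under 0.05. For the 3 genes that had fallen most the log2 fold change of treated against untreated EAE mice was near 0. It was 0.01 for Angpt1 (95% interval -0.38 to 0.39), 0.02 for Trpc6 (-0.38 to 0.43) and -0.01 for Robo4 (-0.30 to 0.28). Recovery to the naive level would need a log2 fold change of 1.06 to 1.45, which lies outside these intervals.

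Procr and Tek were the genes whose treated and untreated EAE libraries did not overlap. Procr was at 485 to 513 in treated EAE mice and 440 to 466 in EAE mice, with a log2 fold change of 0.15 (95% interval -0.08 to 0.37). Tek was at 64.2 to 76.3 in treated EAE mice and 80.8 to 113 in EAE mice, with a log2 fold change of -0.41 (-0.93 to 0.11). The adjusted p of limma-trend was 0.998 for both. Of all tested genes, 8.5% lay without overlap above and 7.6% below in this comparison, so 1 of 8 in each direction is close to the background.

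**Figure D3:**
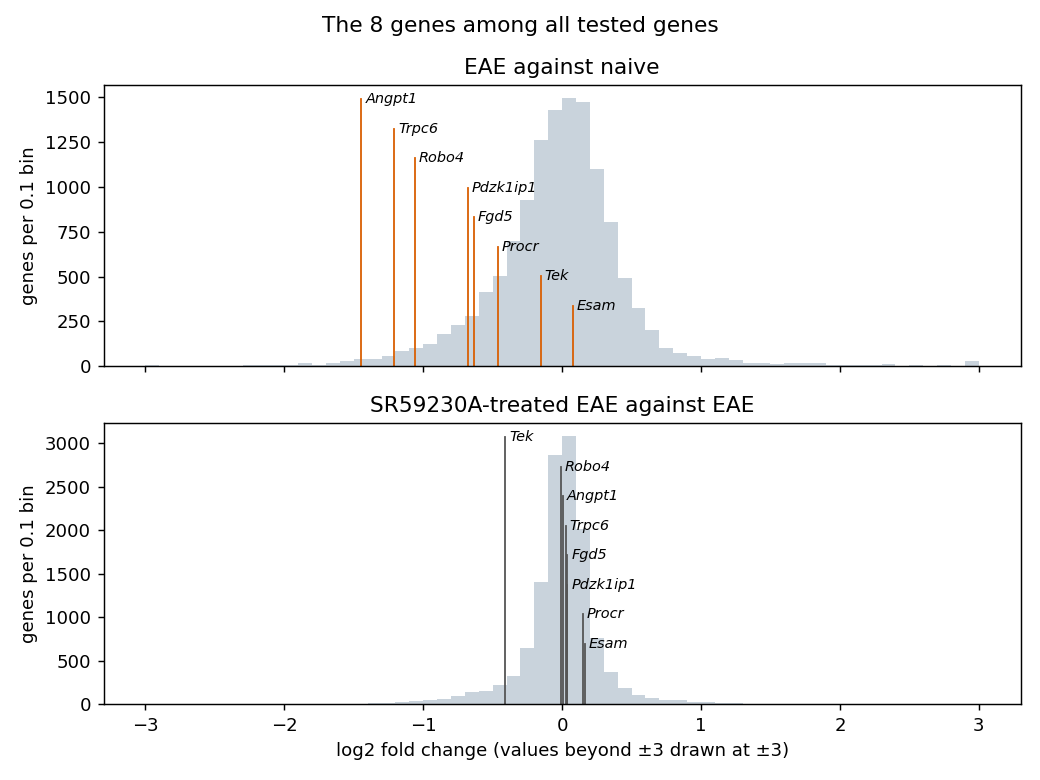
Histograms of log2 fold changes of all 12892 tested genes (grey, y axis in genes per bin of 0.1) for EAE against naive mice and for SR59230A-treated against untreated EAE mice, with a vertical line at each of the 8 genes. The height of a line carries no value. In the upper panel 6 lines lie in the lower tail, from -1.45 to -0.46, and in the lower panel 7 lie between -0.01 and 0.16, with Tek at -0.41.

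In treated EAE against naive mice, 5 of the 8 genes were lower and none was higher (limma-trend), against 4.66% of all genes lower, 10.4% higher and 15% in either direction. With an unadjusted p under 0.05 there were 7 of the 8, against 31.2% of all genes. These naive mice are the same as in the first comparison, so the 2 sets of values are not independent. Angpt1 had a log2 fold change of -1.44 ± 0.18, Trpc6 of -1.18 ± 0.18, Robo4 of -1.07 ± 0.13, Pdzk1ip1 of -0.64 ± 0.18 and Fgd5 of -0.60 ± 0.15. All 6 genes that were lower in EAE mice, Procr included, lay without overlap below the naive mice in the treated mice, a pattern found in 22.2% of all genes. Esam was at 341 ± 53.7 in treated EAE mice and 289 ± 42.2 in naive mice (SD, n = 3 each) and did not pass (limma-trend adjusted p = 0.374).

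The calls near the threshold moved with single libraries. Procr had a log2 fold change of -0.32 ± 0.10 in treated EAE against naive mice and just missed the threshold (limma-trend adjusted p = 0.0579), but passed under 8 of 18 alternatives, among them without EAE replicate 1, 2 or 3 or naive replicate 2 (adjusted p = 0.0328, 0.0294, 0.0216 and 0.0145). The EAE libraries are not among the mice compared here. Without any 1 of them the log2 fold change of Procr stayed at -0.32, while its SE, from a spread shared by all libraries, fell to 0.092, 0.086 and 0.083. Tek, at -0.57 ± 0.24, did not pass (adjusted p = 0.130) except without naive replicate 2 (0.0165), the naive mouse with the low value. Fgd5 was lost without naive replicate 1 (adjusted p = 0.0502). Pdzk1ip1 was lost without treated replicate 2 (0.0577) or 3 (0.0676) and without naive replicate 1 (0.0670) or 2 (0.0627). Over the fits that leave out 1 library, 3 to 6 of the 8 genes passed, with 3 without naive replicate 1. The number of all genes passing in these fits ran from 1237, without naive replicate 1, to 3309, without EAE replicate 3, against 1938 with all libraries. With the chemosensory term 0 of the 8 and 13 of all genes passed.

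Other genes of stem cells and of the niche gave a mixed picture in EAE against naive mice. Of 28 tested receptors for niche signals, 8 fell and 4 rose, and their median was -0.11 on the log2 scale. Itga9, an integrin subunit gene, fell by 1.29 ± 0.25 on the log2 scale. The Wnt receptor gene Fzd4 fell by 1.42 ± 0.38 and the netrin and repulsive guidance receptor gene Neo1 by 1.14 ± 0.34. Both of these calls were lost without EAE replicate 1 (limma-trend adjusted p = 0.0530 and 0.0536) or naive replicate 1 (0.0908 and 0.0902), and that of Neo1 also without scaling (0.0572).

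Of 25 other tested surface markers of stem cells, 7 fell and 6 rose in EAE against naive mice. Selp, which encodes P-selectin, and Vldlr, a lipoprotein receptor gene, rose by 2.71 ± 0.11 and 2.09 ± 0.10 on the log2 scale, in the opposite direction to the 6 lower genes described above. Of 26 other tested genes enriched in stem cells, 10 fell and 1 rose, with a median of -0.34. The transcription factor gene Hlf, the phosphatase gene Ptpn14 and the lymphotoxin gene Ltb fell by 1.48 ± 0.10, 1.46 ± 0.24 and 1.46 ± 0.17. Within a library, the ratio of Angpt1 to Hlf was 1.04, 0.728 and 0.741 in treated EAE mice, 0.700, 0.996 and 0.971 in EAE mice and 0.936, 1.02 and 0.668 in naive mice. The overlap of this ratio between the groups restates the similar log2 fold changes of Angpt1 (-1.45) and Hlf (-1.48) and is no separate result.

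**Figure D4:**
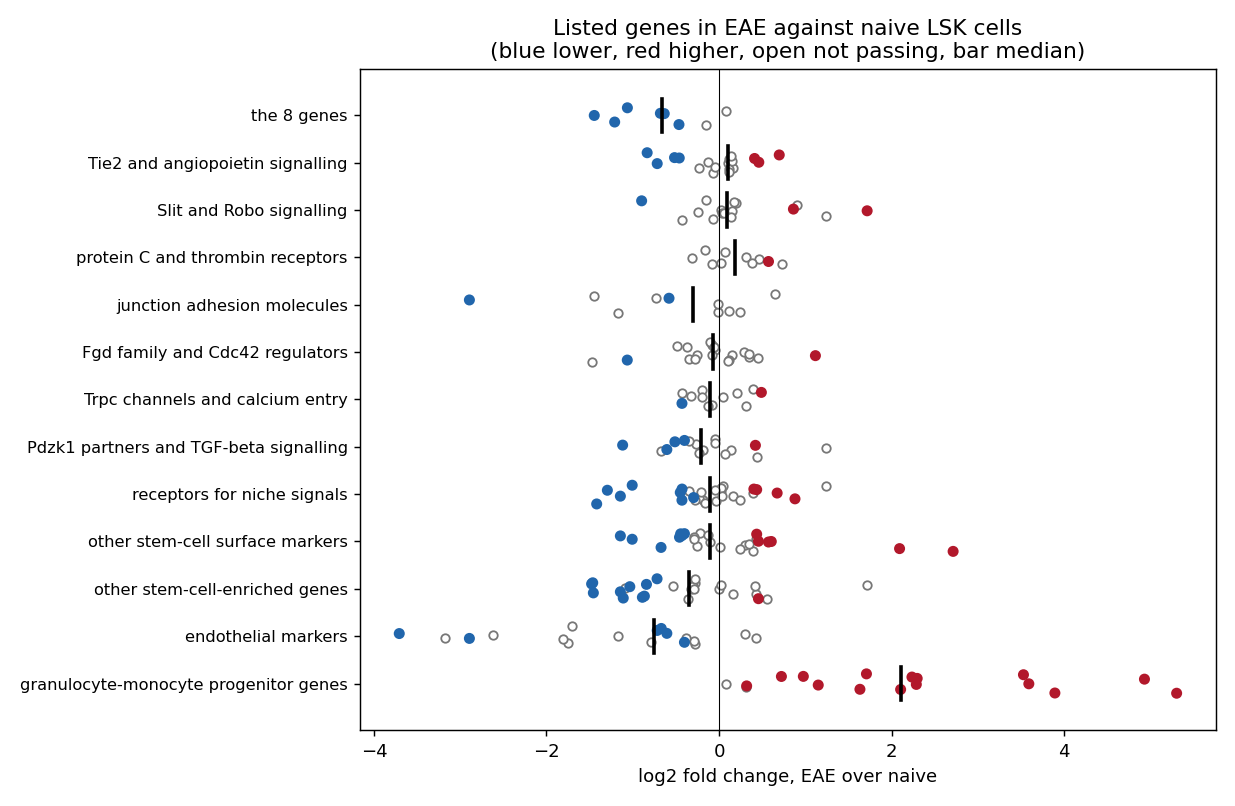
Log2 fold change in EAE over naive mice (x axis) of the tested genes of 13 lists (rows), 1 point per gene. Blue points fell and red points rose at adjusted p under 0.05, open points did not pass, and the black bar is the median. The 8 genes have a median of -0.66, their signalling partners spread on both sides of 0, and 15 of 17 granulocyte-monocyte progenitor genes are red.

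Genes of granulocyte-monocyte progenitors moved with this comparison: 15 of 17 tested rose and none fell. Ms4a3 and Elane, which mark these progenitors, rose by 5.30 ± 0.15 and 4.93 ± 0.25 on the log2 scale. Their part in the lower values of the 8 genes was not tested. In SR59230A-treated against untreated EAE mice none of the 216 tested genes of the 16 lists passed by limma-trend. Of them 19 (8.8%) had an unadjusted p under 0.05, beside 3.86% of all genes. In treated EAE against naive mice 32 of these 216 genes fell and 40 rose, beside 4.66% and 10.4% of all genes. In EAE against naive mice 39 fell and 36 rose, beside 5.14% and 9.24% of all genes.

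Since Tek, Robo4, Procr, Esam and Fgd5 are also endothelial genes, markers of other cell types are given beside them. Of 18 tested endothelial markers, 6 fell and none rose in EAE against naive mice, and their median was -0.75 on the log2 scale. Sele, which encodes E-selectin, had means of 1.5 in EAE mice, 1.8 in treated EAE mice and 32.6 in naive mice. It thus passed the filter on low values through the naive mice alone, and a fall was the only direction it could show. Its log2 fold change was -3.71 ± 0.88, a call lost with a pseudocount of 0.1 (limma-trend adjusted p = 0.0549). Sele is part of the median above, as is Cdh5, for which the naive mice alone were enough to pass that filter. Egfl7, an endothelial secreted factor gene, fell by 0.67 ± 0.14. The 21 endothelial markers of 26 listed that were in the table summed to 6221 to 6740 in treated EAE mice, 5344 to 6511 in EAE mice and 6157 to 7964 in naive mice. The 6 of 7 defining markers that were in the table summed to 372 to 442 in treated EAE mice, 313 to 409 in EAE mice and 516 to 913 in naive mice, without overlap between immunized and naive mice. Cdh5 and Cldn5, with naive means of 59.2 and 33.45, made up a small part of this sum. How far the other markers in it are particular to endothelium within LSK cells was not tested. None of these markers was at 0 in all libraries.

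Among the 3 naive mice the genes differed in how they stood beside this sum. Naive replicate 3 had the highest defining endothelial sum (913) and the highest Cdh5 value (123, with 35.5 and 19.0 in the other naive mice). It had the highest naive values of Procr, Esam and Fgd5, a Tek value of 122 beside the highest of 125, and the lowest naive values of Angpt1, Robo4, Trpc6 and Pdzk1ip1. Naive replicate 2 had the lowest defining sum (516), the highest naive values of Robo4, Trpc6 and Pdzk1ip1, and the lowest of Tek, Procr, Esam and Fgd5. Without naive replicate 3, 6 of the 8 genes and 1862 of all genes passed in EAE against naive mice. The part of endothelial cells in the lower values was not tested.

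**Figure D5:**
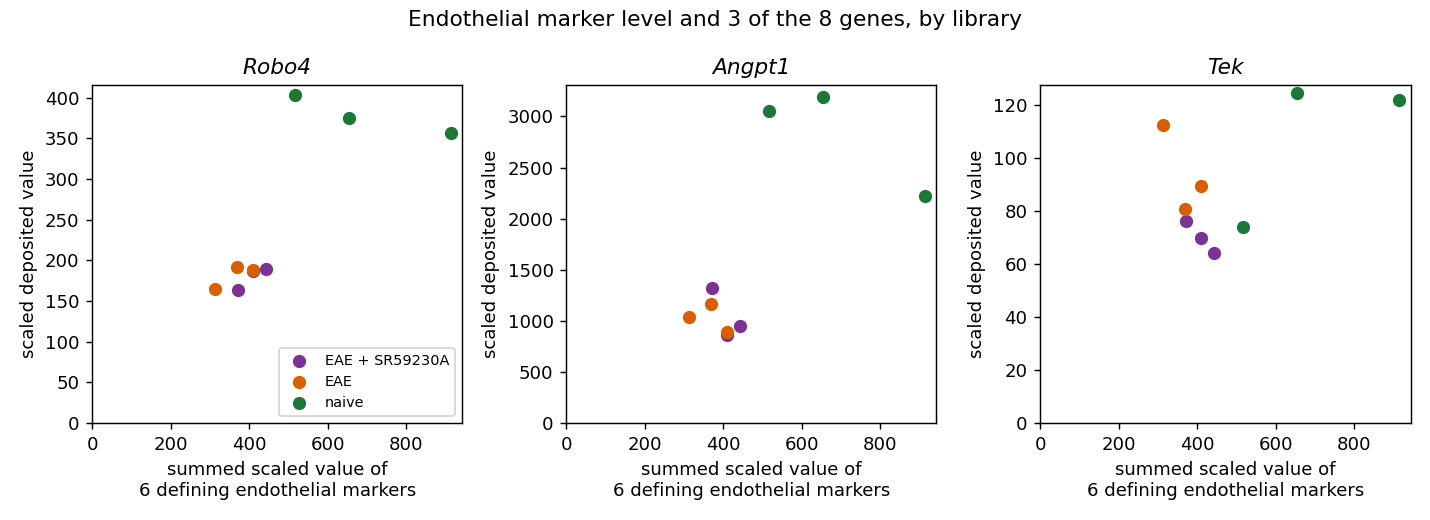
Scaled values of Robo4, Angpt1 and Tek (y axes, from 0) against the summed scaled value of 6 defining endothelial markers (x axes), 1 point per library of SR59230A-treated EAE, EAE and naive mice. The naive library with the highest endothelial sum (913) has the lowest naive Robo4 (357) and Angpt1 (2222) values, while the naive library with the lowest sum (516) has the lowest naive Tek value (73.9).

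Stromal and megakaryocyte markers, cells known to make angiopoietin-1, were also measured. Of the defining stromal markers in the table, Cxcl12 lay between 0 and 8.45 and Col1a1 between 1.02 and 25.6 in all libraries, while Pdgfrb was at 1489 to 1550 in treated EAE mice, 1528 to 1625 in EAE mice and 1133 to 1323 in naive mice. The 9 stromal markers of 20 listed that were in the table summed to 3780 to 3975 in treated EAE mice, 3457 to 3800.1 in EAE mice and 3678 to 4372 in naive mice. Most of that sum came from Pdgfrb and Runx2, the latter with means of 1950.3 in EAE mice and 2648.5 in naive mice. In EAE against naive mice Runx2 fell by 0.45 ± 0.11 on the log2 scale and Pdgfrb rose by 0.39 ± 0.09, so the sum hides opposite changes. The call of Runx2 was lost without EAE replicate 2 and that of Pdgfrb without scaling. The 4 defining megakaryocyte markers summed to 91.1 to 163 in treated EAE mice, 93.8 to 191 in EAE mice and 194 to 263 in naive mice. Of 13 tested megakaryocyte markers, 3 fell and 2 rose in EAE against naive mice, and the 15 of 17 listed that were in the table summed to 3510 to 4043 in treated EAE mice, 3411 to 4141 in EAE mice and 3729 to 3843 in naive mice. Of 16 listed markers of mature lineages, 12 were in the table. They summed to 1989 to 2539 in treated EAE mice, 1723 to 2238 in EAE mice and 1139 to 1615 in naive mice. Much of this came from the integrin gene Itgam, with means of 1321.5, 1315 and 669 in these 3 groups. In EAE against naive mice 2 of 9 tested rose (Itgam and the natural killer receptor gene Klrb1c). The part of these cell types in the results was not tested.

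The genes most like the 8 genes were found by Pearson's r over the 9 libraries with the mean of their standardised log2 values. Because naive and immunized mice stand apart, such an r follows the group difference and is given as a description. The 6 closest were Tmem40, E030011O05Rik, Rab5b, Pld6, Peg12 and Rgs3, with r from 0.983 to 0.994. E030011O05Rik, for example, had values of 81.4, 74.4 and 66.6 in treated EAE mice, 81.3, 79.8 and 68.8 in EAE mice and 185.5, 155 and 178 in naive mice. Taken gene by gene, the closest match was Kif21b for Angpt1, Tnks1bp1 for Robo4, Slc50a1 for Procr, Irf2 for Fgd5, Arvcf for Trpc6 and Arhgef17 for Pdzk1ip1, with r from 0.984 to 0.994. For Tek it was Vmn1r50, a chemosensory receptor gene at 6.11 to 21.6 (r = 0.987), and for Esam it was Higd2a (r = 0.959).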

How the data were processed

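A single deposited table holds 14940 symbols in 9 libraries. Its whole numbers are a score that the authors adjusted in a way the labels do not describe. In a principal component analysis of 4577 genes averaging 500 or more, on the ln(value + 1) scale, component 6 carried 2.44% of the variance but components 7 and 8 just 6.7e-05% and 5.94e-05%, so the values obey 2 linear relations that unadjusted read counts would not. Both directions lay within groups (99.4% and 99.7%). Aligner, build and counting tool: not given in the sources used here.

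Libraries were scaled by the median of ratios, with factors from 0.90 to 1.11. A gene was tested if 3 or more libraries had a scaled value of 10 or more. The log2(value + 1), which understates fold changes of low genes, was fitted with limma-trend (limma 3.58.1, R 4.3.3) over 9 libraries, 1 coefficient per group and the 2 directions as covariates (4 residual degrees of freedom). Tests were 2-sided, with Benjamini-Hochberg adjustment over 12892 genes. Fits without 1 library re-estimated the directions. All 8 symbols match GENCODE M21. Samples were grouped by their treatment label, and replicate numbers follow deposition order.

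The genes, lists and alternatives were chosen with earlier results of these data known. Beside the 8 genes, up to 4 passing genes with the largest change were named per list and comparison, and the 6 genes most like the 8 together and the gene most like each. Some genes that this rule names are not reported here.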

Additional observations from a re-analysis of the deposited data

How the results depend on the processing

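Over 18 alternatives, the 24 fold changes of the 8 genes (8 genes in 3 comparisons) kept direction and call in 383 of 432 cases, lost a call in 18, gained one in 9 and changed sign in 22. A term for the summed level of chemosensory receptor genes had the widest effect. That level did not overlap between naive and immunized mice (0.0806% to 0.10% of the values in treated EAE, 0.107% to 0.121% in EAE and 0.151% to 0.181% in naive mice), so the term also takes out differences between these groups. With it, 1 of the 8 genes passed in EAE against naive and 0 in treated EAE against naive mice, and Tek turned to 0.10 in the first of these. In treated against untreated EAE mice it turned Angpt1 to -0.49, Trpc6 to -0.26 and Robo4 to 0.085. The same term turned Cdh5 (0.18), Sele (0.058) and Ly6a (-0.050) in EAE against naive mice, and Cldn5 (0.60), F11r (0.21), Ly6a (-0.17), Ptger4 (-0.17) and Sele (2.77) in treated EAE against naive mice, where Cldn5, F11r and Ptger4 had passed at -1.32, -0.54 and 0.89.

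In treated against untreated EAE mice, where no gene of the 8 passed in any setting, signs near 0 also changed without scaling for Angpt1 (-0.081), Trpc6 (-0.061), Fgd5 (-0.051) and Pdzk1ip1 (-0.049), and with upper-quartile scaling for Angpt1 (-0.014). Leaving out each library in turn gave -0.18 to 0.13 for Angpt1, -0.078 to 0.052 for Robo4, -0.057 to 0.15 for Trpc6, -0.053 to 0.10 for Fgd5 and -0.13 to 0.20 for Pdzk1ip1. In EAE against naive mice it gave -0.023 to 0.22 for Esam and 5 to 6 of the 8 genes passing, beside 1242 to 2629 of all genes. In treated EAE against naive mice 3 to 6 of the 8 genes passed, beside 1237 to 3309 of all genes. No paired analysis was possible because the labels give the mice of the 3 groups no shared numbers.

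Over all genes, 1854 passed in EAE against naive mice (1191 higher and 663 lower), 1059 without scaling, 3471 with group coefficients alone and 113 with the chemosensory term. In treated EAE against naive mice 1938 passed (1337 higher and 601 lower), 1073 without scaling, 3885 with group coefficients alone, 4399 with the 6 libraries alone, 13 with the chemosensory term, and 1237, 2948 and 3309 without naive replicate 1, EAE replicate 2 and EAE replicate 3. Upper-quartile scaling gave 808 higher and 913 lower genes in EAE against naive mice and 832 higher and 955 lower in treated EAE against naive mice. Without scaling the median log2 fold change of all genes was -0.11 in treated EAE against naive mice, and the split there was 489 higher and 584 lower. The fits with group coefficients alone and with the 6 libraries alone left out the 2 directions as covariates, so their spread did not allow for them. The cause of these changes was not tested. The unknown depth limits what can be said of genes at low values, Tek among them.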
